A study of Mus musculus with 8 samples.

Results

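Most genes whose symbol starts with Ube2 encode ubiquitin conjugating (E2) enzymes, and 37 protein coding genes of that name were found among 35944 genes of mouse buffy coat RNA-seq. They were taken by name from the GENCODE M21 annotation, a rule that uses no measured value but was set with earlier results of these data known. The name also covers Ube2v1 and Ube2v2, which lack the catalytic cysteine, and Ube2cbp, a ligase, and leaves out E2 enzymes of other names. Mice had received PM2.5, fine airborne particulate matter, or PBS, phosphate-buffered saline, over 24 weeks, and total RNA was sequenced from their buffy coat, the layer of a spun blood sample that is rich in white cells and platelets. The PM2.5 group consisted of 4 libraries (replicates 9, 17, 18 and 21), and the PBS group of another 4 (replicates 4, 10, 12 and 16), with numbers taken from the labels. Strain, sex, age, dose and route are not stated in what was used here. Nor do the labels tie a library to its own animal, which means that p-values reflect library-to-library spread, which may be technical.

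A ubiquitin conjugating enzyme takes activated ubiquitin from an E1 enzyme onto a cysteine of its own and passes it, with an E3 ligase, to a target protein, where it can mark the protein for the proteasome or change its activity. Some family members carry a ubiquitin-like protein instead: Ube2m and Ube2f carry NEDD8, and Ube2l6 carries ISG15. In maturing red cells this system helps to clear organelles and surplus proteins, and the family is known there through Ube2o, which tags ribosomal proteins in mouse reticulocytes, and through Ube2h.

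The libraries held 72081019 to 89032794 expected counts. Haemoglobin transcripts (4 genes) made up 87.7% ± 1.01 of counts in the PM2.5 libraries against 85.6% ± 2.34 in the PBS libraries (SD, 4 libraries a group; two-sided exact permutation p = 0.143). The difference was 2.16 percentage points, and it was 1.08 without PBS replicate 4, the lowest library (exact permutation p = 0.229). It was 2.94 without PBS replicate 12, the PBS library that lay inside the PM2.5 range. Leaving out that library separates the groups by itself. The exact permutation p of 0.0286, the smallest that 4 against 3 libraries allow, was thus set by that choice and is no support for a difference. Markers of white cells were counted, and red cell markers were far more abundant. The 18 erythroid genes found in the table summed to 20531 to 35774 CPM (counts scaled to library size, which the TMM method adjusts for a few dominant genes) with PM2.5 and 16555 to 27072 with PBS. The 11 B cell genes summed to 39.5 to 50.9 CPM with PM2.5 and 46.0 to 76.2 with PBS, and the 13 neutrophil genes to 30.4 to 57.8 with PM2.5 and 15.7 to 32.4 with PBS. Past an adjusted p of 0.05 in edgeR were 5 of 9 neutrophil genes tested (higher), 3 of 9 monocyte genes (higher), 1 of 8 NK cell genes (higher) and 3 of 11 B cell genes (lower), and 0 of 18 erythroid (5 unadjusted), 0 of 11 T cell (2 unadjusted) and 0 of 9 platelet genes (0 unadjusted). The part of these cell types in the Ube2 values was not tested. In bulk RNA, fewer cells of a type and less RNA per cell cannot be told apart.

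The Ube2 genes took 3.64% ± 0.392 of the counts that were not haemoglobin in PM2.5 and 3.36% ± 0.247 in PBS libraries (SD, n = 4 each), and most of this came from Ube2l6 and Ube2o. These genes together held 76.9% to 81.0% of the family's counts in each library. Levels between genes are compared as FPKM, fragments scaled by transcript length and library total, summed over each gene's transcripts. Ube2l6 was the 14th most abundant of all genes at a mean of 1562 FPKM over the 8 libraries (1484 to 1739), followed in the family by Ube2o at 340 (294 to 488) and Ube2b at 261 (210 to 325). The ranges of Ube2o and Ube2b overlapped, and Ube2l6 lay above both in every library. FPKM and TMM-scaled CPM can order the groups differently: Ube2l6 averaged 1520 ± 30.6 FPKM in PM2.5 libraries, against 1605 ± 106 FPKM in PBS libraries, while its CPM below were higher on average with PM2.5. Ube2h at 105 FPKM (91.3 to 130) and Ube2r2 at 102 (94.4 to 123) did not differ beyond their spread. Ube2c followed at 73.3 FPKM, Ube2s at 35.4, Ube2d3 at 24.5, Ube2m at 24.0, Ube2f at 21.8 and Ube2e3 at 12.6. In all, 11 members averaged 10 FPKM or more, 10 averaged from 1 to 10, and 16 averaged under 1 FPKM.

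**Figure D1:**
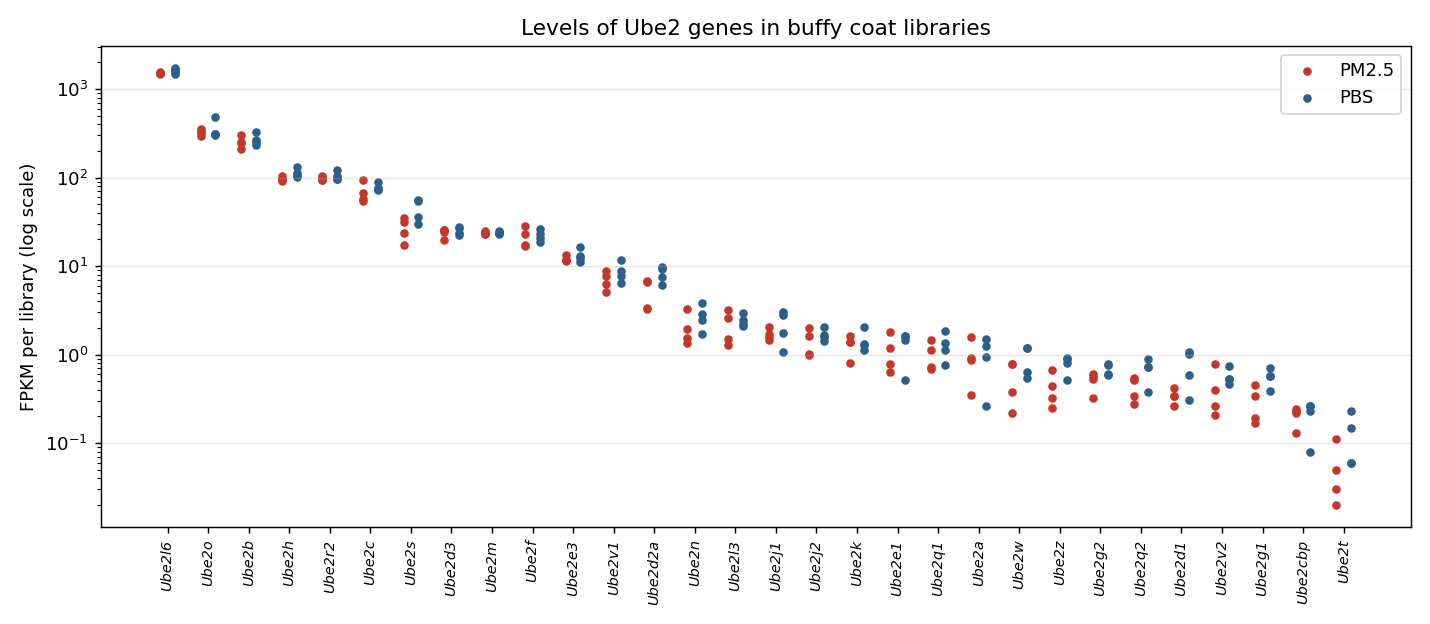
FPKM of 30 of the 31 Ube2 genes above 0 in all 8 libraries (log scale), with PM2.5 libraries in red to the left of PBS libraries in blue, ordered by mean level. Ube2l6 stands near 1562 FPKM, far above Ube2o and Ube2b, and most other members lie below 10 FPKM.

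Of the abundant members, Ube2o lacked a RefSeq promoter window. The promoters of Ube2l6, Ube2b and Ube2h, also abundant, are shown for their levels. Those of Ube2v1 and Ube2g1 are shown because their groups did not overlap in TMM-scaled CPM. Each promoter is the stretch from 250 bases before to 50 after a RefSeq transcription start on GRCm38.p6, the start nearest to that of the gene's most counted transcript, written 5′ to 3′ on the gene's strand. Capitals mark matches to CCNCNCCC or its reverse complement GGGNGNGG, and overlapping matches run together. This loose pattern covers some CACCC boxes, of the kind bound by KLF factors, and also other C-rich stretches such as CCCCGCCC. CACCC letters outside the pattern are not marked, for example in Ube2l6 and Ube2v1. Of the stretches marked below, only GGGTGGGG in Ube2l6 holds CACCC itself, on the reverse strand.
Ube2l6 (chr2:84798578-84798877, plus strand): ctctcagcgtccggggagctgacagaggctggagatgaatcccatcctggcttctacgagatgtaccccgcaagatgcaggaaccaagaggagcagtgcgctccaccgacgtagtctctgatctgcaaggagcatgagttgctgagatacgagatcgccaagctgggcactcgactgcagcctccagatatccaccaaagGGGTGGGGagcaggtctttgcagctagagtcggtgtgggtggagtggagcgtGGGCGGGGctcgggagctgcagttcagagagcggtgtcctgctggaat
Ube2b (chr11:52000442-52000741, minus strand): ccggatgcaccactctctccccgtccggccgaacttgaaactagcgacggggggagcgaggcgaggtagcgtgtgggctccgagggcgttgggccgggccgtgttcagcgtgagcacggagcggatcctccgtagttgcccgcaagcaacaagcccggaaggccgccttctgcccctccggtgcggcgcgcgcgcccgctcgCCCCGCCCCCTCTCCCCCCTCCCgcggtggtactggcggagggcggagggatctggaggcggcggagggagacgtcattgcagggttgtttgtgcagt
Ube2h (chr6:30304490-30304789, minus strand): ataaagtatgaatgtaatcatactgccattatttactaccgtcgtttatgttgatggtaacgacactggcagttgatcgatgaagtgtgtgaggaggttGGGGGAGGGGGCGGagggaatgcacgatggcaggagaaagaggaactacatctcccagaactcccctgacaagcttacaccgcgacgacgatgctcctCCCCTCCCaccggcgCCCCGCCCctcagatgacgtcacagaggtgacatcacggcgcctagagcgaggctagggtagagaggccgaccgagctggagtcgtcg
Ube2v1 (chr2:167631956-167632255, minus strand): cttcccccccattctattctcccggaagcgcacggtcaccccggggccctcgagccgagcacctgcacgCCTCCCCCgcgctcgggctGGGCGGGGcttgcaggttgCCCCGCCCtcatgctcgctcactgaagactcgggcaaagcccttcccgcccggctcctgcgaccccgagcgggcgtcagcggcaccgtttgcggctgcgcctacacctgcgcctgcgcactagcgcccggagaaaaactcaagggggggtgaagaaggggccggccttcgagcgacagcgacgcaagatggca
Ube2g1 (chr11:72607011-72607310, plus strand): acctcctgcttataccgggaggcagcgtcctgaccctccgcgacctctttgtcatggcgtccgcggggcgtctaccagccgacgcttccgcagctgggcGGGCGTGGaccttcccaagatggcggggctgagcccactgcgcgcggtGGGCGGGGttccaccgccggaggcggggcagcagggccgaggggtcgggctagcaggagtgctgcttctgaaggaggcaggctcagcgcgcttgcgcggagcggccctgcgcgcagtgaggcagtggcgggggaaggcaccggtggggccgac
Ube2h had 5 such matches, Ube2b 4, Ube2v1 3, and Ube2l6 and Ube2g1 2 each. Of the 30 members with a promoter in the RefSeq table, 25 (83.3%) held a match, against 49.7% of 32544 distinct promoter windows of all genes. The pattern is C-rich and the windows were not matched for base composition, so no enrichment of a factor's site can be read from these shares. Also searched on both strands were AGATAA, a site of GATA-family erythroid factors, and TTTGAA (the core of a cell cycle promoter element). An interferon pattern was searched by its letters likewise, a form of the interferon-stimulated response element. It asks for a short motif in repeat with a gap between the copies, so a lone copy was not a match. AGATAA was found in 0 of 30 members and 11.2% of all windows. The interferon pattern was found in 1 member (3.33%) and 3.45% of all windows, and TTTGAA in 4 members (13.3%) and 17.8% of all windows. Ube2l6, an interferon-inducible gene, had no match to the interferon pattern in its window, and Ube2c held a TTTGAA match. These are letter matches and not measured binding.

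The comparison of PM2.5 with PBS asked which blood transcripts differed after exposure, and no Ube2 gene passed. Of the 37 members, 30 passed the filter on low counts and were tested with edgeR, and 0 had an adjusted p under 0.05, where 1.6% of the 10361 genes tested did (48 higher and 118 lower). The lowest adjusted p of a member was 0.207, for Ube2g1. An unadjusted p under 0.05 was found for 4 of the 30, Ube2m and Ube2f with a positive and Ube2g1 and Ube2z with a negative log2 fold change, where 18% of all genes had such a p. With single libraries left out, that number of members ran from 0 without PM2.5 replicate 18 to 10 without PBS replicate 12. Of all genes, 1431 of 10693 and 2051 of 10680 had such a p in these fits. DESeq2 called 0 members as well (9 at an unadjusted p under 0.05, where 1915 of 10361 genes had one). The limma fit on log2(FPKM + 1) called 0 of the 21 members it could test (2 unadjusted, and 716 of 3658 genes). Fold changes ran from -0.45 to 0.61 on the log2 scale with a median of 0.25, and 20 of 30 were above 0, against a median of 0.04 and 54.4% above 0 for all genes tested. Scaling to library totals in place of TMM put 0 of 30 above 0, with a member median of -0.32 against -0.52 for all genes. The member median was 0.09 without PM2.5 replicates 17 and 18, and 0.25 without PM2.5 replicates 9 and 21. That last fit had 10 members at an unadjusted p under 0.05, and 2185 of 11018 genes. With the mean of the erythroid list as covariate the member median was -0.01.

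With TMM scaling, fold changes went with level in the family and outside it. Of the 11 members at 10 FPKM or more, 10 had a positive log2 fold change, with a median of 0.47, and over all 673 genes tested at that level 93.0% were positive with a median of 0.34. Of the 19 tested members below 10 FPKM, 10 were positive with a median of 0.03, and over all 9688 such genes 51.7% were positive with a median of 0.02. With library totals all 30 members were negative at either level. These are descriptions, with no test.

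**Figure D2:**
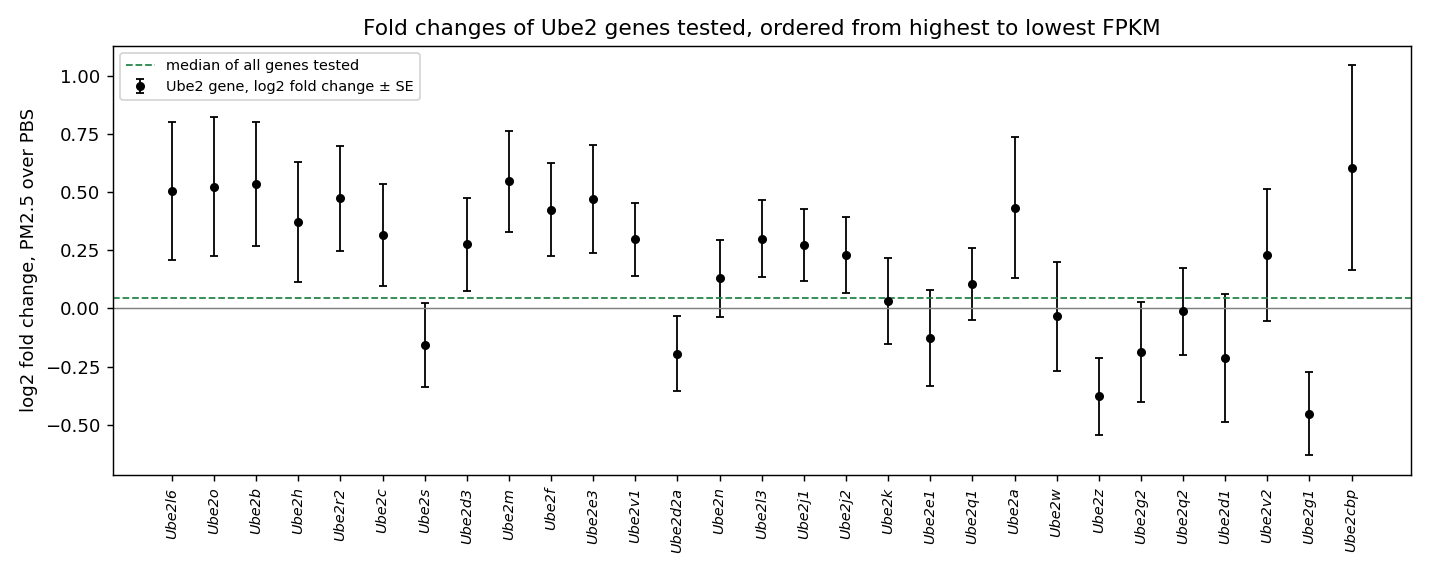
Log2 fold change (PM2.5 over PBS, points) with its SE (bars) for 29 of the 30 Ube2 genes tested, ordered from the highest to the lowest FPKM, with the median of all genes tested (0.04) as a dashed line. The abundant members at the left lie mostly between 0.3 and 0.6. Ube2s, Ube2z, Ube2g1 and several others lie below 0, and with library totals as the scaling 0 of 30 lie above it.

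In TMM-scaled CPM, the abundant members had the same libraries at the top. Ube2l6, the conjugating enzyme of the interferon-induced modifier ISG15 (chromosome 2, 84798828 to 84810335, GRCm38), had 1698, 3064, 2976 and 1934 CPM in PM2.5 replicates 9, 17, 18 and 21, and 1451, 1453, 2464 and 1453 CPM in PBS replicates 4, 10, 12 and 16. PM2.5 replicates 17 and 18 and PBS replicate 12 were the high libraries, and the groups overlapped. The log2 fold change was 0.50 (SE 0.298, adjusted p = 0.372). Ube2o, a large enzyme that acts as E2 and E3 in a single protein and tags ribosomal proteins in mouse reticulocytes (chromosome 11, 116537740 to 116581447), had 1306, 2727, 2568 and 1572 CPM with PM2.5 and 1582, 1130, 1778 and 1197 CPM with PBS. Its lowest PM2.5 library lay below PBS replicates 4 and 12. The log2 fold change of Ube2o was 0.52 (SE 0.298, adjusted p = 0.355).

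Ube2h, which works with the CTLH ligase complex (chromosome 6, 30211289 to 30304539), had 379, 650, 616 and 446 CPM in PM2.5 replicates 9, 17, 18 and 21, and 370, 321, 549 and 377 CPM in PBS replicates 4, 10, 12 and 16. Its groups overlapped, and the log2 fold change was 0.37 (SE 0.257, adjusted p = 0.447). Ube2b, a homologue of yeast Rad6 that ubiquitinates histone H2B and the replication clamp PCNA (chromosome 11, 51985497 to 52000762), had 176, 372, 258 and 188 CPM with PM2.5 and 177, 141, 229 and 139 CPM with PBS. PM2.5 replicate 17 was the highest library for Ube2b, and PM2.5 replicate 9 lay just under PBS replicate 4. Its log2 fold change was 0.53 (SE 0.266, adjusted p = 0.297). Ube2r2, a relative of Cdc34 that serves cullin-RING ligases (chromosome 4, 41135743 to 41193380), had 112, 165, 178 and 128 CPM with PM2.5 and 98.4, 85.3, 137 and 98.0 CPM with PBS. PM2.5 replicates 17 and 18 lay above all PBS libraries, and replicates 9 and 21 lay below PBS replicate 12. The log2 fold change of Ube2r2 was 0.47 (SE 0.226, adjusted p = 0.278).

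**Figure D3:**
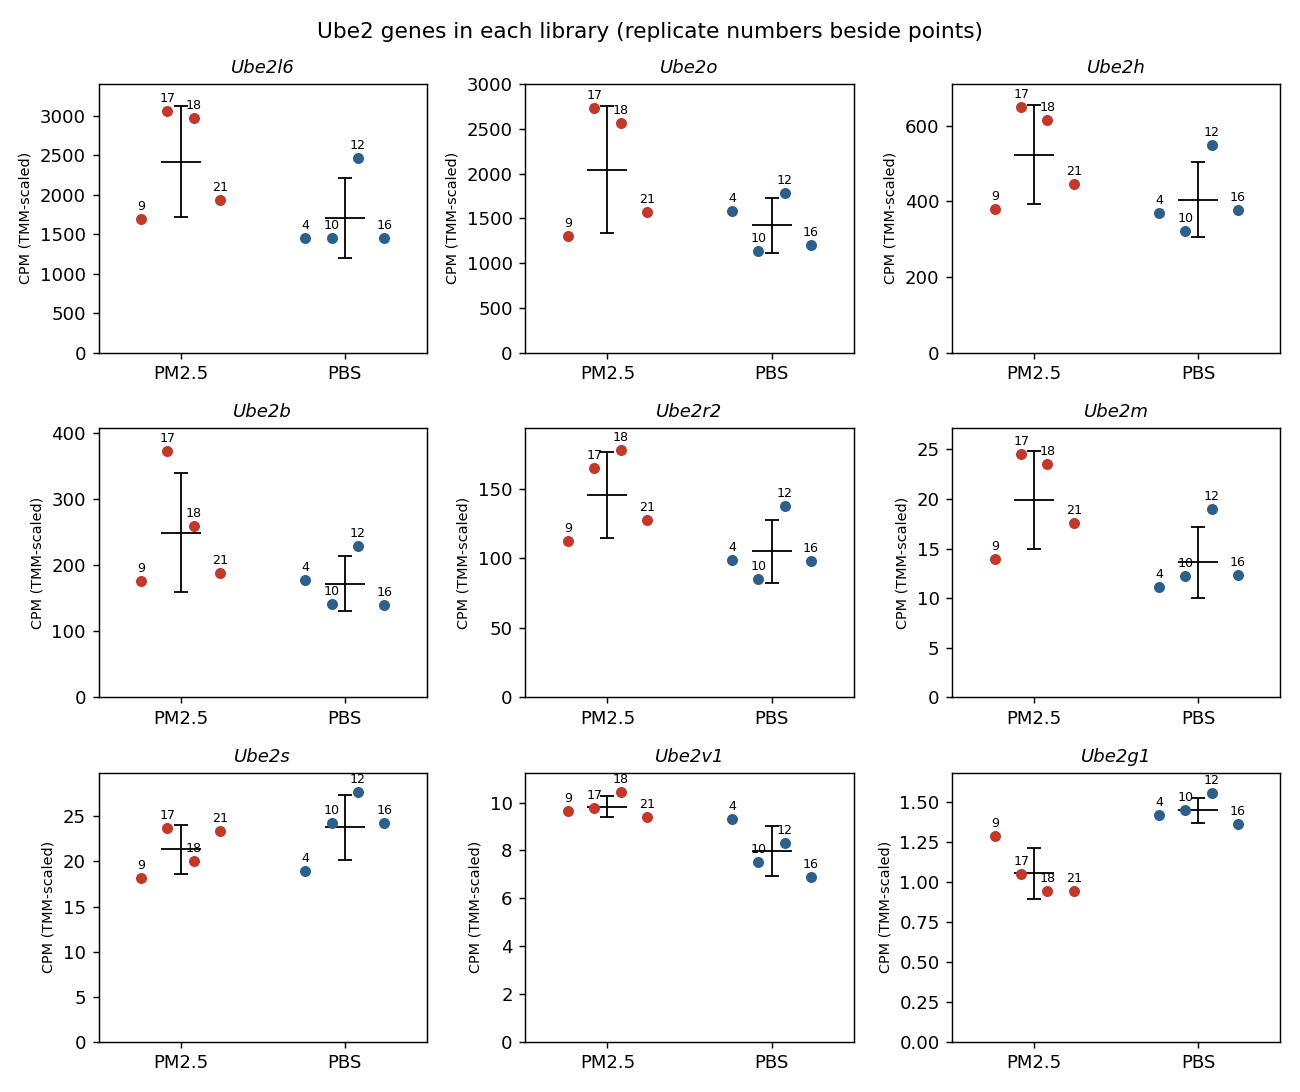
CPM (TMM-scaled) of 9 Ube2 genes in each library, PM2.5 in red and PBS in blue, with replicate numbers beside the points, the group mean as a horizontal bar and the SD as the error bar (n = 4 each). For Ube2l6, Ube2o, Ube2h, Ube2b, Ube2r2 and Ube2m the points of PM2.5 replicates 17 and 18 and PBS replicate 12 stand highest, whereas the groups separate for Ube2v1 and Ube2g1.

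The high libraries for these genes by CPM were also those richest in haemoglobin transcripts. PM2.5 replicates 17 and 18 and PBS replicate 12 had the 3 highest haemoglobin shares, 88.6%, 88.6% and 87.9%. They also had the smallest TMM factors, 0.644, 0.638 and 0.832, against 0.991 to 1.52 elsewhere, and a small factor raises CPM. In FPKM the highest library was PBS replicate 4 for Ube2l6 (1739), Ube2o (488), Ube2b (325), Ube2h (130) and Ube2r2 (123). By CPM the same 3 libraries were the highest for 9 of the 30 members tested (30%), namely Ube2l6, Ube2o, Ube2b, Ube2h, Ube2r2, Ube2d3, Ube2m, Ube2e3 and Ube2j1, and for 6.26% of all genes tested. Summed over the 37 members, the CPM were 3860, 7239, 6844 and 4498 in PM2.5 replicates 9, 17, 18 and 21, and 3859, 3310, 5400 and 3446 in PBS replicates 4, 10, 12 and 16. The erythroid list had a median log2 fold change of 0.42, with 18 of 18 genes positive and 0 past the test (5 at an unadjusted p under 0.05). All genes tested were also positive in the platelet (9, median 0.34), NK cell (8, median 0.46) and monocyte lists (9, median 0.58). In the B cell list 0 of 11 were positive. With the mean of the erythroid list as covariate, a fit that called no gene of the whole table (913 unadjusted), the log2 fold changes were -0.01 for Ube2l6, -0.07 for Ube2o, -0.02 for Ube2b, -0.11 for Ube2h and 0.08 for Ube2r2. Without PM2.5 replicates 17 and 18 they were 0.09 for Ube2l6, 0.02 for Ube2o, 0.09 for Ube2b, 0.03 for Ube2h and 0.20 for Ube2r2, and without replicates 9 and 21 they were 0.80 for Ube2l6, 0.87 for Ube2o, 0.85 for Ube2b, 0.62 for Ube2h and 0.68 for Ube2r2. Replicates 17 and 18 were the highest PM2.5 libraries for these genes, so the direction of both shifts follows from which libraries were left out. That pair was left out because some brain-expressed transcripts were counted in it. Camk2a had 1.43 and 1.79 CPM there and Snap25 0.531 and 0.537 CPM. Both genes were at 0 CPM in PM2.5 replicates 9 and 21 and at most 0.0373 CPM with PBS. Other brain genes, such as Mbp and Nrgn, were counted in all libraries. The part of brain transcripts in the Ube2 values was not tested. The 10 interferon response genes of a marker list had a median of 0.58 with 9 positive and 0 past the test (5 unadjusted), and their part in the Ube2l6 values was not tested.

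**Figure D4:**
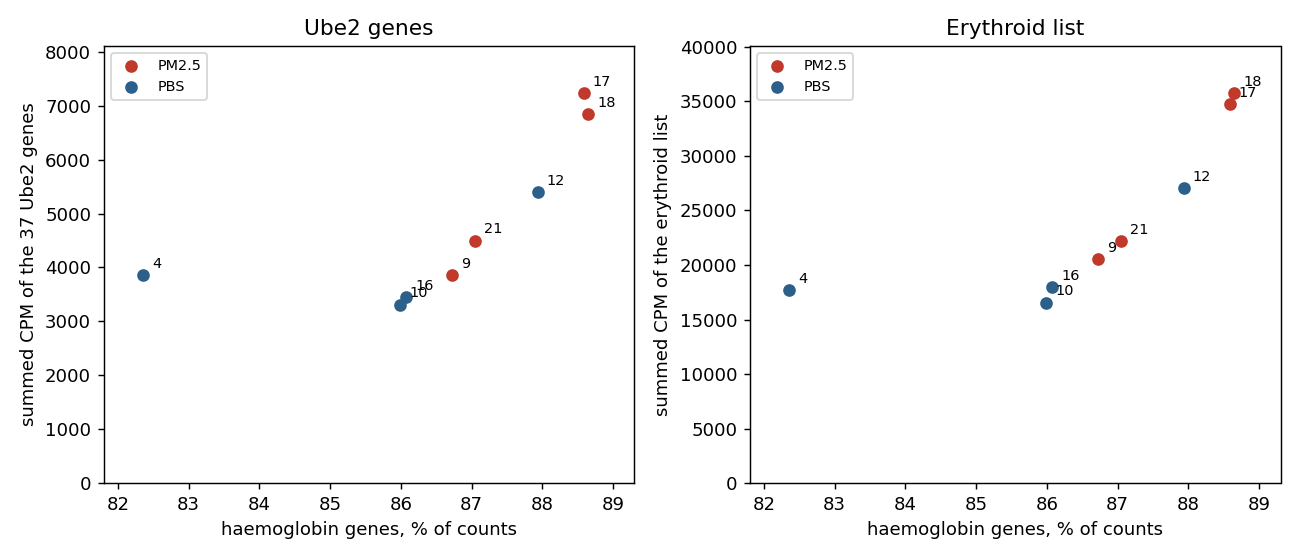
Summed CPM of the 37 Ube2 genes (left) and of the erythroid list (right) against the share of counts in the 4 haemoglobin genes, for each library, with replicate numbers beside the points. PM2.5 replicates 17 and 18 and PBS replicate 12 are highest on all these measures, and PBS replicate 4 combines the lowest haemoglobin share, 82.4%, with a Ube2 sum of 3859 CPM.

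Of the enzymes that carry NEDD8, Ube2m and Ube2f, 0 passed the test (2 unadjusted). Ube2m, the NEDD8 enzyme of most cullins (chromosome 7, 13035120 to 13038275), had 13.98, 24.5, 23.5 and 17.6 CPM with PM2.5 and 11.1, 12.2, 19.0 and 12.3 CPM with PBS. PBS replicate 12 lay inside the PM2.5 range, and the other PBS libraries lay below all PM2.5 libraries. On the log2 scale the fold change was 0.55 (SE 0.218, adjusted p = 0.211), the lowest adjusted p among the members with a positive change. Ube2f, the NEDD8 enzyme of Cul5, had 21.4, 27.3, 27.8 and 27.3 CPM with PM2.5 and 15.6, 15.2, 24.8 and 21.6 CPM with PBS, and its log2 fold change was 0.42 (SE 0.198, adjusted p = 0.267). PM2.5 replicate 9 was the low library of its group and lay under PBS replicates 12 and 16.

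Cell cycle enzymes were counted at very different levels. Ube2c, which starts ubiquitin chains with the anaphase-promoting complex, had 40.4, 60.3, 57.7 and 62.9 CPM with PM2.5 and 40.1, 36.1, 62.3 and 39.2 CPM with PBS. PBS replicate 12 and PM2.5 replicates 17, 18 and 21 were high, and the log2 fold change was 0.32 (SE 0.220, adjusted p = 0.448). Ube2s, which lengthens those chains, had 18.2, 23.7, 20.1 and 23.4 CPM with PM2.5 and 18.9, 24.3, 27.7 and 24.2 CPM with PBS. Its groups overlapped, and its log2 fold change was -0.16 (SE 0.182, adjusted p = 0.671). Exons of Ube2s overlap those of the ribosomal protein gene Rpl28 on the opposite strand (mean counts 1900 for Ube2s and 1543 for Rpl28), so its counts are uncertain if strand was not used. Ube2t, the enzyme of the Fanconi anaemia pathway of DNA crosslink repair, was below the filter with 9, 6, 5 and 4 counts in the PM2.5 libraries and 4, 5, 10 and 17 counts in the PBS libraries. Of the 9 proliferation genes tested, 0 passed (0 unadjusted) and their median log2 fold change was 0.32.

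In TMM-scaled CPM, the members with no overlap between the groups were Ube2v1 and Ube2g1. Ube2v1 lacks the catalytic cysteine and directs Ube2n to build ubiquitin chains used in NF-kB signalling and DNA repair. It had 9.66, 9.79, 10.4 and 9.41 CPM in PM2.5 replicates 9, 17, 18 and 21, and 9.30, 7.50, 8.29 and 6.87 CPM in PBS replicates 4, 10, 12 and 16. Every PM2.5 library lay above every PBS library for 1 of 30 members, Ube2v1, and for 3.02% of all genes tested, and its log2 fold change of 0.30 (SE 0.157) did not pass (adjusted p = 0.322). In FPKM the groups of Ube2v1 overlapped, and the PM2.5 mean was the lower (7.02 ± 1.70 against 8.73 ± 2.26 with PBS, SD). Exons of Ube2v1 (chromosome 2, 167607638 to 167632095) are shared with the readthrough gene Gm20431, at a mean of 18.5 counts against 732 for Ube2v1. Ube2n itself had 1.67, 1.52, 2.05 and 1.72 CPM with PM2.5 and 1.60, 1.57, 1.77 and 1.44 CPM with PBS, and its groups overlapped (log2 fold change 0.13, SE 0.164, adjusted p = 0.701). Ube2v2, the other partner of Ube2n, was at 0.23 (SE 0.283, adjusted p = 0.689).

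Ube2g1, a chain-building enzyme of cullin-RING ligases (chromosome 11, 72607283 to 72686481), had 1.28, 1.04, 0.944 and 0.938 CPM with PM2.5 and 1.42, 1.45, 1.55 and 1.36 CPM with PBS. Every PM2.5 library lay below every PBS library for 1 of 30 members, Ube2g1, and for 6.64% of all genes tested. In FPKM the groups of Ube2g1 overlapped, with PM2.5 replicate 9 at 0.45 and PBS replicate 12 at 0.39. Its log2 fold change was -0.45 (SE 0.179, adjusted p = 0.207), and it was -0.36 with the erythroid covariate and -0.37 without PM2.5 replicates 17 and 18. Ube2z, which takes ubiquitin from the E1 enzyme Uba6, had 2.23, 1.43, 1.85 and 1.64 CPM with PM2.5 and 2.18, 2.48, 2.34 and 2.32 CPM with PBS. PM2.5 replicate 9 lay inside the PBS range of Ube2z, the other PM2.5 libraries lay below it, and the log2 fold change was -0.38 (SE 0.166, adjusted p = 0.247).

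Among enzymes of wide partner choice, Ube2e3 had 14.7, 24.6, 27.8 and 16.9 CPM with PM2.5 and 15.3, 12.02, 20.8 and 12.4 CPM with PBS, with overlapping groups and 0.47 as the log2 fold change (SE 0.230, adjusted p = 0.29). Ube2l3, which serves HECT and RBR ligases such as parkin, had 3.57, 3.79, 4.68 and 4.47 CPM with PM2.5 and 3.65, 2.75, 4.09 and 2.94 CPM with PBS (log2 fold change 0.30, SE 0.166, adjusted p = 0.343). Its groups overlapped. Ube2d3 averaged 44.2 ± 8.72 CPM in PM2.5 and 36.5 ± 6.04 CPM in PBS libraries, and Ube2d2a 6.08 ± 0.314 CPM in PM2.5 and 6.95 ± 1.20 CPM in PBS libraries (SD, n = 4 each). The log2 fold change was 0.28 for Ube2d3, -0.19 for Ube2d2a and -0.21 for Ube2d1, with adjusted p-values of 0.469, 0.53 and 0.708. Ube2d genes are near-identical in their coding parts, so reads could be split among them and their pseudogenes, and these values are uncertain.

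Enzymes of endoplasmic reticulum-associated degradation, which returns misfolded secretory proteins to the proteasome, were low. Ube2j1 had 3.86, 5.06, 5.18 and 4.06 CPM with PM2.5 and 3.84, 3.84, 4.06 and 3.26 CPM with PBS, and PM2.5 replicates 9 and 21 lay inside the PBS range. Its log2 fold change was 0.27 (SE 0.155, adjusted p = 0.355), beside 0.23 for Ube2j2 (adjusted p = 0.464) and -0.19 for Ube2g2 (adjusted p = 0.666). The remaining members tested were all at 2.22 CPM or less on average in either group. They were Ube2k at a log2 fold change of 0.03, Ube2q1 at 0.11, Ube2q2 at -0.01, Ube2e1 at -0.13, Ube2w at -0.03, Ube2a, the close relative of Ube2b, at 0.43, and Ube2cbp, named for binding Ube2c and itself a ligase, at 0.61 (SE 0.438), with adjusted p-values from 0.452 to 0.977. Below the filter with Ube2t, Ube2e2 had 0, 0, 2 and 2 counts with PM2.5 and 1, 0, 3 and 6 with PBS, and Ube2ql1 had 5 counts in PM2.5 replicate 17, 1 in PM2.5 replicate 18 and 0 elsewhere. Ube2d2b, Ube2dnl1, Ube2dnl2 and Ube2u had 0 counts in all 8 libraries, which at 3 counts allows up to 0.0337 to 0.0416 CPM before TMM scaling, counting error only.

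Other genes of the pathway did not pass either. Of 9 E1 activating enzymes tested 0 passed (0 unadjusted, median log2 fold change -0.01), with Uba6, the E1 of Ube2z, at -0.48 (SE 0.231, adjusted p = 0.287) and Nae1, a subunit of the NEDD8 E1, at -0.33 (SE 0.220, adjusted p = 0.438). Of 7 other E2-fold genes 0 passed (1 unadjusted, median 0.18), with the autophagy enzyme Atg3 at 0.57 (SE 0.226, adjusted p = 0.204) and Cdc34 at 0.39 (SE 0.208, adjusted p = 0.332). Of 13 ubiquitin and ubiquitin-like precursor genes 0 passed (3 unadjusted, median 0.08). Atg12, the autophagy modifier, averaged 31.1 ± 7.25 CPM in PM2.5 and 19.1 ± 4.86 CPM in PBS libraries (SD, n = 4 each), with a log2 fold change at 0.70 (SE 0.217, adjusted p = 0.114). Isg15, the modifier that Ube2l6 carries, averaged 54.3 ± 20.5 CPM in PM2.5 and 34.8 ± 12.97 CPM in PBS libraries (SD, n = 4 each), with a log2 fold change at 0.64 (SE 0.285, adjusted p = 0.25). Of 31 partner ligases tested 0 passed (5 unadjusted, median 0.01), with Fancl, the ligase of Ube2t, at 0.82 (SE 0.245, adjusted p = 0.104) and Rnf20, the histone H2B ligase that works with Ube2a and Ube2b, at 0.72 (SE 0.259, adjusted p = 0.169). DESeq2 called Atg12 (adjusted p = 0.0454, over settings 0.0288 to 0.826). Fancl passed without PBS replicate 12 (adjusted p = 0.0223, over settings 0.0155 to 0.682), and Rnf20 without PM2.5 replicates 9 and 21 (log2 fold change 1.09, adjusted p = 0.0472, over settings 0.0342 to 0.912).

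The deposited table gives estimated counts per transcript, so the family was also followed below the gene. Of the 212 transcripts of the 37 genes, 89 were tested and 0 had an adjusted p under 0.05 in edgeR, as was so for 0% of the 19836 transcripts tested. At an unadjusted p under 0.05 there were 11 Ube2 transcripts (7 with positive and 4 with negative change), where 10.4% of all transcripts had such a p. Ube2l6, Ube2o and Ube2h were each carried by a single transcript, which held at least 99.7% of the gene's counts in every library.

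Retained-intron and coding transcripts of the family differed in direction, as they did over all genes. A retained-intron transcript of Ube2d3 of 19300 bases held 14.4%, 8.48%, 8.38% and 13.1% of that gene's counts in PM2.5 replicates 9, 17, 18 and 21, and 26.8%, 27.2%, 15.4% and 20.4% in PBS replicates 4, 10, 12 and 16. PBS replicate 12, the lowest of its group at 15.4%, lay near PM2.5 replicate 9 at 14.4%. How often such shares separate the groups over all transcripts was not counted. The log2 fold change of this transcript was -0.78 (SE 0.189, adjusted p = 0.296). That of the main coding transcript of Ube2d3 was 0.51 (SE 0.204, adjusted p = 0.462). In Ube2d2a, a retained-intron transcript of 8159 bases held 16.1% ± 1.43 of the counts in PM2.5 and 25.6% ± 3.998 in PBS libraries (SD, n = 4 each) and was at -0.88 (SE 0.241, adjusted p = 0.337). Over the 17 retained-intron transcripts of Ube2 genes tested, 12 were negative with a median of -0.30, and over all 3426 of that class 75.4% were negative with a median of -0.52. The 63 coding transcripts of Ube2 genes had a median of 0.27 and all 14206 coding transcripts 0.10. The estimates carry an error in dividing reads among transcripts that the test does not see.

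**Figure D5:**
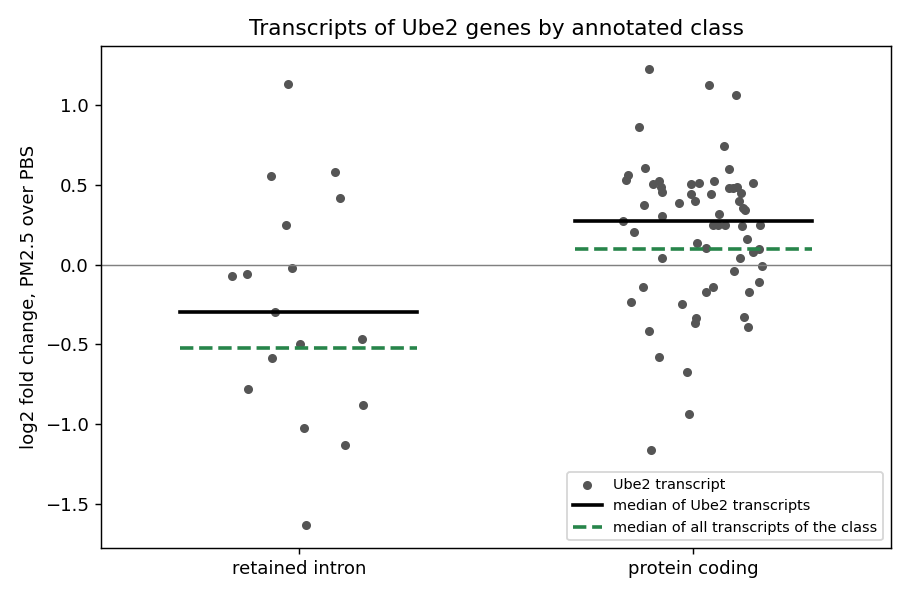
Log2 fold change (PM2.5 over PBS) of each tested transcript of the Ube2 genes by annotated class, with the median of these transcripts as a solid line and the median of all tested transcripts of the class as a dashed line. Retained-intron transcripts lie mostly below 0 (median -0.30), and coding transcripts mostly above it (median 0.27), as over all genes.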

How the data were processed

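The 8 libraries were made from buffy coat RNA with random primers and a dUTP-marked second strand, according to the protocol in the labels. Read processing involved HISAT2 2.0.1, bcl2fastq 2.17.1.14, cutadapt 1.9.1 and GRCm38, as listed in the submitters' processing notes. No counting tool or strand setting is named in what was used here. The deposited table holds, per the file headers, the authors' expected counts per transcript, not normalized, of which 24.5% are not whole. It also holds the authors' deposited FPKM, scaled by transcript length and library total.

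Here 116710 of 118783 transcripts matched GENCODE M21 by identifier and were summed per gene. The rest held at most 0.0532% of a library. Rounded gene sums went into the quasi-likelihood test of edgeR 4.0.16 under R 4.3.3 (two-sided, filterByExpr with minimum count 10 and total 15, TMM), with Benjamini-Hochberg adjustment over all genes and a threshold of 0.05. The SE is the log2 fold change over the square root of F. Transcripts were fitted likewise. Haemoglobin shares were compared by exact permutation (70 arrangements). No library pair agreed within sampling noise (chi-square per degree of freedom at least 21.1), so all 8 were kept. On simulated counts the procedure called 29.9% of 1.5-fold, 89.6% of 2-fold and 100% of 4-fold changes. Of its calls, 5.19% were false. A Ube2 gene that did not pass may thus still differ by 1.5-fold.

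The members and gene lists were chosen with earlier results of these data known. Values in every library are given for the 10 members of smallest p, the 5 of highest FPKM and 11 preset members (18 genes in all), except that 1 member, kept in every count and fit, is not reported here by itself or drawn in the plots of single genes. From each pathway list the 2 genes of smallest p are named. Alternatives were DESeq2 1.42.0, limma 3.58.1 with a trend on log2 FPKM (pseudocount 1 or 0.1, keeping genes that reached 1 FPKM in 4 libraries), other scalings and filters, an erythroid covariate and libraries left out.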

Additional observations from a re-analysis of the deposited data

Results flagged for a closer look

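Within a group of 4, the highest or lowest library stood far from the other 3 for several Ube2 genes, in 7 flags over 66 groups checked, and chance alone flags about 1 in 20 groups. In PBS replicate 12, Ube2l6 was 2464 CPM (other PBS libraries 1451 to 1453), Ube2c 62.3 CPM (36.1 to 40.1), Ube2m 19.0 CPM (11.1 to 12.3) and Ube2j2 1.73 CPM (1.34 to 1.39). In PM2.5 replicate 9, Ube2f was 21.4 CPM (other PM2.5 libraries 27.3 to 27.8) and Ube2d2a 6.55 CPM (5.90 to 5.96). PM2.5 replicate 21 held 11008297 counts outside haemoglobin, against 9615115 to 9680814 in the other PM2.5 libraries. PBS replicate 12 also had the highest haemoglobin share of its group, 87.9%.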

How the results depend on the processing

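No Ube2 gene passed adjusted p 0.05 under any setting run, nor did a Ube2 transcript with no filter or with single libraries left out, the alternatives run for transcripts, and the lowest adjusted p of a member was 0.0849 (Ube2m without PBS replicate 12). Values in the rest of this paragraph are log2 fold changes less the median of all genes in the same fit, since scaling to library totals moved that median by over 0.1. On that scale the member median was 0.21, between 0.15 and 0.28 without single libraries, 0.07 without PM2.5 replicates 17 and 18, 0.26 without 9 and 21, and -0.031 with the erythroid covariate. Under that covariate the sign turned for Ube2l6 (-0.025), Ube2o (-0.091), Ube2b (-0.041), Ube2h (-0.13), Ube2c (-0.073), Ube2d3 (-0.036), Ube2e3 (-0.054), Ube2k (0.082) and Ube2q2 (0.17). It also turned for Ube2k with library totals (0.015), for Ube2v1 (-0.00014), Ube2n (-0.027), Ube2k (0.20) and Ube2e1 (0.14) with limma on log2(FPKM + 1), and for Ube2n (-0.049), Ube2k (0.24) and Ube2e1 (0.16) with the smaller pseudocount. Without PM2.5 replicates 17 and 18 it turned for Ube2k (0.078) and Ube2q2 (0.056), and without 9 and 21 for Ube2w (0.065). Without single libraries Ube2k ran from -0.074 to 0.096, Ube2q2 from -0.12 to 0.024, Ube2v2 from -0.076 to 0.35 and Ube2w from -0.16 to 0.016. Pathway genes past the test numbered 1 with DESeq2 and 1 without PM2.5 replicates 9 and 21. There were 3 with no filter (Fancl, Rnf20 and Atg12), and 0 to 1 without single libraries. The haemoglobin difference ran from 1.08 to 2.94 percentage points without single libraries. Among all genes 166 passed, against 373 with DESeq2, 483 with library totals, 624 with no filter, 0 with limma (716 unadjusted), 0 with the covariate, 8 without PM2.5 replicates 17 and 18, 189 without 9 and 21, and 31 to 192 without single libraries. The causes were not tested. No paired analysis was possible because the groups share no replicate numbers. The 7 members below the filter hold few counts and were not tested in the main fit. With no filter 33 members were tested, and the 4 with 0 counts in all libraries could not be.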
